A study of Drosophila melanogaster and Drosophila persimilis and Drosophila pseudoobscura with 5 samples.

Results

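Gene expression in the hearing organ was compared between Drosophila yakuba and Drosophila simulans, which were each represented by 1 RNA-seq library. The genes described were those at least 4-fold apart between both libraries, a difference of at least 2 in log2(signal + 1), among genes with a mean signal of at least 5 over the 5 species' libraries. Of 8180 genes in the authors' table of genes shared by the 5 species, 4982 passed this mean, and 960 of them (19.3%) were at least 4-fold apart. D. yakuba was higher for 562 genes (11.3% of those compared) and lower for 398 genes (7.99%). Among the 4757 genes above 0 in both libraries, 446 (9.38%) were higher and 361 (7.59%) were lower.

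Johnston's organ is the hearing organ of the fly. It is an array of stretch-sensitive chordotonal units in the second antennal segment, and it detects movements of the third segment, which carries the odour receptors. Each unit holds neurons whose cilia contain motor proteins of the axonemal dynein type and mechanically gated channels, wrapped by support cells. The TRPV channel subunit encoded by nanchung (nan) and the intraflagellar transport machinery that builds the cilium are both required for hearing in D. melanogaster.

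The study sequenced total RNA of the organ from adult flies of D. yakuba, D. simulans, D. melanogaster, D. pseudoobscura and D. persimilis, all reared at 25 degrees Celsius on the usual food. Each species' reads were counted on its own annotation, which the labels give as release 1.3 for D. yakuba and 1.4 for D. simulans. No source used here gives the strain, the sex, the number of flies or the way the organ was dissected. There was no second library of either species, so no difference below has a replicate check, no test was made, and a difference between species cannot be told apart from a difference between these particular samples.

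The D. yakuba library held 13916387 counted reads and the D. simulans library 7580214, within a range of 7580214 to 22391819 over the 5 libraries. The signal is the authors' value per gene, corrected for gene length and scaled to a common 75th percentile of 34.3. For a gene of median level, the signal corresponded to about 541 reads in D. yakuba and 219 in D. simulans, estimated on the coding length of the D. melanogaster gene. Of the 10 genes fixed as markers of Johnston's organ neurons, 6 were matched in the table, and none of these stood at 0 in any library. Their signals summed to 136 in D. yakuba and 19.4 in D. simulans, against 117 in D. melanogaster, 77.2 in D. pseudoobscura and 42.7 in D. persimilis. Over these 6 markers the D. simulans library had the lowest sum of the 5. Dnai2 and Ir25a gave 64.6 and 34.4 of the D. yakuba sum, and 10.8 and 0.537 of the D. simulans sum. Of the 6 markers 3 were past 4-fold higher in D. yakuba and none lower. The marker n-syb, whose values are given below, was not matched among the 6 and is not in these sums.

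The D. yakuba and D. simulans libraries also differed in how signal varied with gene length. The difference between D. yakuba and D. simulans had a Spearman correlation of 0.318 with coding length over 4925 genes, a description across genes that share both libraries. The same correlation was -0.06 for D. yakuba minus D. melanogaster and -0.35 for D. simulans minus D. melanogaster. D. pseudoobscura and D. persimilis were not compared with coding length in this way. The D. melanogaster values were divided by exon length, as described below. In the shortest of 5 equal groups of genes, with coding lengths of 120 to 624 bases, the median log2 difference of D. yakuba minus D. simulans was -0.66. In the longest group, of 2008 to 17015 bases, it was 0.74. Genes past 4-fold higher in D. yakuba made up 19.0% of the longest group and 4.47% of the shortest, and genes past 4-fold lower made up 3.35% of the longest and 13.6% of the shortest. The median coding length was 1572 bases for the higher genes and 858 bases for the lower genes, against 1176 bases for all genes compared. Once the trend with coding length was removed, 493 genes were higher and 395 lower. The part of gene length in any single difference was not tested, and medians with the trend removed are given beside most groups of genes with at least 5 compared members.

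**Figure D1:**
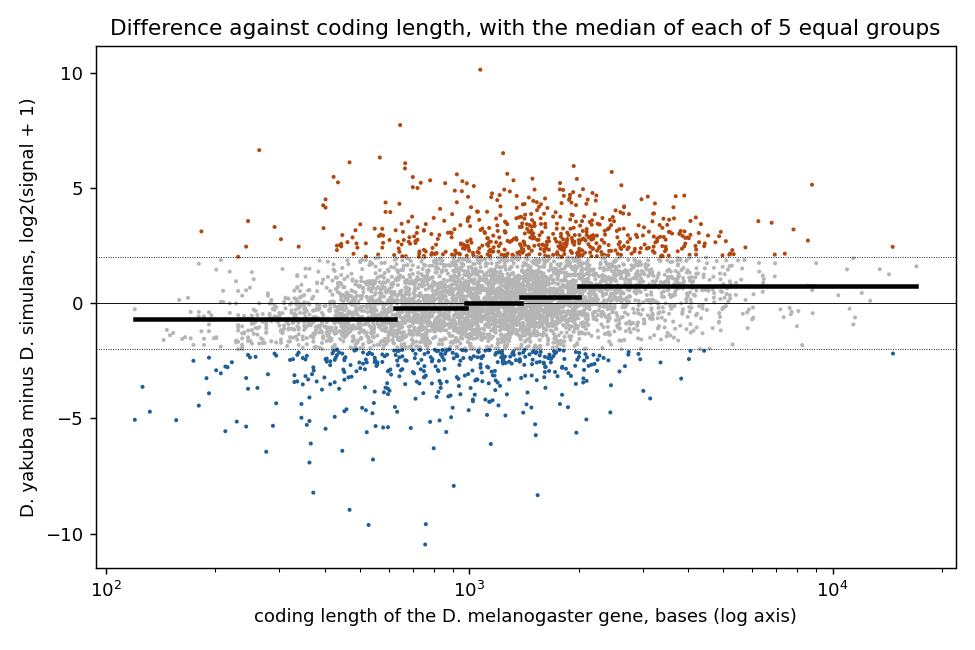
Difference between D. yakuba and D. simulans in log2(signal + 1), on the vertical axis, against the coding length of the D. melanogaster gene in bases on a log axis, for 4925 genes. Orange points are at least 4-fold higher in D. yakuba, blue points at least 4-fold lower, dotted lines mark 4-fold, and black bars give the median of each of 5 equal groups of genes by length, which runs between -0.66 for the shortest and 0.74 for the longest.

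The summed signal of the D. simulans library was 1.55 times that of D. yakuba although their 75th percentiles were equal. The median log2 difference over all compared genes was 0.01. At a lower threshold of 2-fold, 1279 genes were higher and 1087 lower in D. yakuba. At 8-fold the counts were 235 and 164, and at 16-fold they were 86 and 74. Genes past 4-fold higher in D. yakuba had a median of 823 estimated reads in D. yakuba and 31.4 in D. simulans, over 443 genes above 0 in both that had a known length. For 110 of these the D. simulans value rested on fewer than 10 estimated reads. Genes past 4-fold lower had a median of 120 estimated reads in D. yakuba and 478 in D. simulans, and 26 of 358 rested on fewer than 10 estimated reads in D. yakuba. The higher genes were thus mostly well counted in D. yakuba and thinly counted in the shallower D. simulans library.

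**Figure D2:**
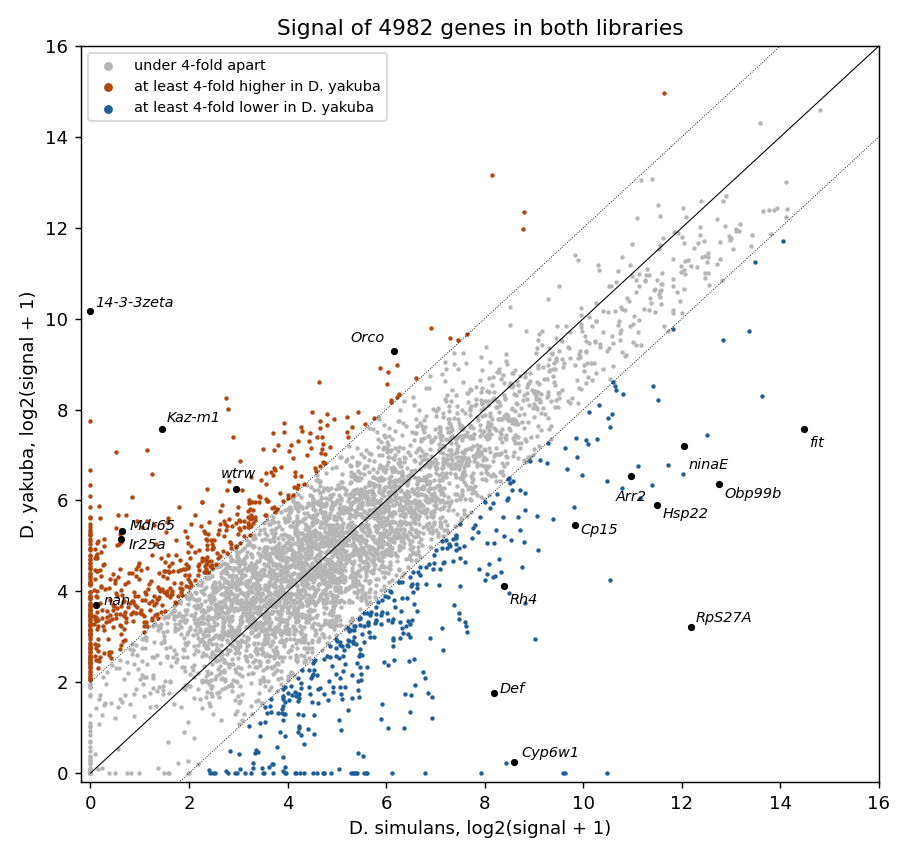
Signal of each of the 4982 genes in D. yakuba, on the vertical axis, and in D. simulans, on the horizontal axis, both as log2(signal + 1). Orange points (562 genes) are at least 4-fold higher in D. yakuba and blue points (398 genes) at least 4-fold lower; the solid line marks equal signal, dotted lines mark 4-fold, and genes named in the text are in black.

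Genes of hearing and of the sensory cilium were more often higher than lower in D. yakuba. Counts for each list below stand beside 11.3% higher and 7.99% lower over all compared genes. Of 25 mechanosensory channel genes listed, 14 were in the table and 4 passed the mean; 2 of these 4 were past 4-fold higher and none lower. The first was nan (FBgn0036414), which in the BDGP6 assembly of D. melanogaster lies at chr3L:14186249-14189648. It had a signal of 11.9 in D. yakuba and 0.0834 in D. simulans, against 13.4 in D. melanogaster, 7.15 in D. pseudoobscura and 7.13 in D. persimilis. The D. simulans library was the only one below 7, and its value corresponds to 1.54 estimated reads, with a 95% exact Poisson interval of 0.242 to 7.22 that covers counting error only. The log2 difference was 3.57, and 2.91 with the length trend removed.

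The second was wtrw, a TRPA channel known from humidity sensing. Its signal was 75.2 in D. yakuba and 6.71 in D. simulans, against 77.9 in D. melanogaster, 71.8 in D. pseudoobscura and 26.6 in D. persimilis. Again D. simulans was lowest, here with 149 estimated reads, and the log2 difference was 3.31. The nociceptive TRPA channel gene pain was at 44.7 in D. yakuba and 17.9 in D. simulans, a difference of 1.28. The DEG/ENaC channel gene ppk was nearly equal, at 14.6 in D. yakuba and 14.3 in D. simulans. The NOMPC channel gene, nompC, did not pass the mean, with 1.71 in D. yakuba and 0.855 in D. simulans.

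Axonemal dyneins drive bending of motile cilia, and their subunits and cytoplasmic assembly factors are expressed in chordotonal neurons. Of 19 such genes measured in all species 10 passed the mean, 5 were past 4-fold higher and 1 lower. Their median difference was 1.93, against 0.01 for all genes. It was 1.31 with the length trend removed and 1.01 with no filter on low values. Ccdc114, a docking protein of the outer dynein arm, was at 20.9 in D. yakuba and 0.0957 in D. simulans, against 16 in D. melanogaster, 0.933 in D. pseudoobscura and 0.777 in D. persimilis. Its level was high in D. yakuba and D. melanogaster and low in the other 3 libraries, with a log2 difference of 4.32. The D. simulans value corresponds to a single estimated read.

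The outer-arm light chain gene ODA-Dnal1 was at 191 in D. yakuba and 24.2 in D. simulans, against 108 in D. melanogaster, 76.8 in D. pseudoobscura and 128 in D. persimilis. The outer-arm intermediate chain gene Dnai2 was at 64.6 in D. yakuba and 10.8 in D. simulans, against 72.1, 21.8 and 13.4 in D. melanogaster, D. pseudoobscura and D. persimilis. D. simulans was lowest for both, with differences of 2.93 and 2.48. The assembly factor gene dtr had a difference of 2.61 and the docking gene gudu one of 2.38. With the length trend removed, dtr and gudu were at 1.70 and 1.89, both under 4-fold. Ccdc114, ODA-Dnal1 and Dnai2 were then at 4.16, 3.34 and 2.12. Dhc93AB, which encodes an outer-arm heavy chain, was at 13.9 in D. yakuba and 4.32 in D. simulans and did not reach 4-fold. The exception was Dnali1, an inner-arm light intermediate chain gene, at 1.04 in D. yakuba and 17.9 in D. simulans, against 24.5 in D. melanogaster, 33.7 in D. pseudoobscura and 31.3 in D. persimilis. Here D. yakuba stood alone below the other 4, with a difference of -3.21, and Dnali1 shares exonic sequence with another annotated gene.

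Cilium assembly genes gave 8 higher and 0 lower among 21 that passed the mean, of 28 in the table. Their median difference was 1.45, 1.2 with the length trend removed and 0.87 among the 18 above 0 in both libraries. It was 0.89 when genes with overlapping exons were left out. BBS4, a subunit of the BBSome that sorts ciliary membrane proteins, was at 25.5 in D. yakuba and 0.0931 in D. simulans, against 39.0 in D. melanogaster, 55.4 in D. pseudoobscura and 69.1 in D. persimilis. Only D. simulans was low. The intraflagellar transport genes Oseg5, at 15.9 in D. yakuba and 0.292 in D. simulans, and Oseg1, at 13 in D. yakuba and 0.318 in D. simulans, had differences of 3.71 and 3.41.

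The transition zone gene Cby was at 91.0 in D. yakuba and 8.53 in D. simulans, and the tubby gene ktub at 24.9 in D. yakuba and 4.09 in D. simulans. IFT46, Oseg4 and the centriole gene Sas-6 were at 29.8, 7.21 and 5.25 in D. yakuba and were all listed at 0 in D. simulans, where a 0 can also be a gene without a match. Among the cilium assembly genes past 4-fold, BBS4, Oseg5, Oseg1, Cby, Oseg4 and Sas-6 share exonic sequence with another annotated gene, while IFT46 and ktub do not. Klp68D, a subunit of the kinesin that carries intraflagellar cargo outward, fell just short of 4-fold at 54.2 in D. yakuba and 12.8 in D. simulans. IFT20 and Rootletin ran the other way, at 32.8 and 12.4 in D. yakuba and 59.1 and 22.5 in D. simulans.

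Of the support and matrix genes of the chordotonal unit 16 were in the table and 5 passed the mean. The apical polarity gene crb was the only one past 4-fold, at 9.31 in D. yakuba and 1.37 in D. simulans. With the length trend removed its difference of 2.12 became 1.12, and the list's median of 1.38 dropped to 0.41. Among 7 transcription factor genes of the antenna and of chordotonal neurons that passed the mean, of 26 in the table, 2 were higher and 0 lower. The antennal identity gene spineless (ss) was at 21.3 in D. yakuba and 0.885 in D. simulans, against 24.2 in D. melanogaster, 11.6 in D. pseudoobscura and 5.05 in D. persimilis. Again only D. simulans was below 5. The homeobox gene onecut was at 19.3 in D. yakuba and listed at 0 in D. simulans. The genes dtr, Ccdc114, Oseg5, Oseg1, crb and onecut passed the mean of at least 5 only through D. yakuba, which favours a higher value there. The same holds for wrapper, DIP-eta, CG6290 and Tl below, and for 68 of the 562 higher genes in all.

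**Figure D3:**
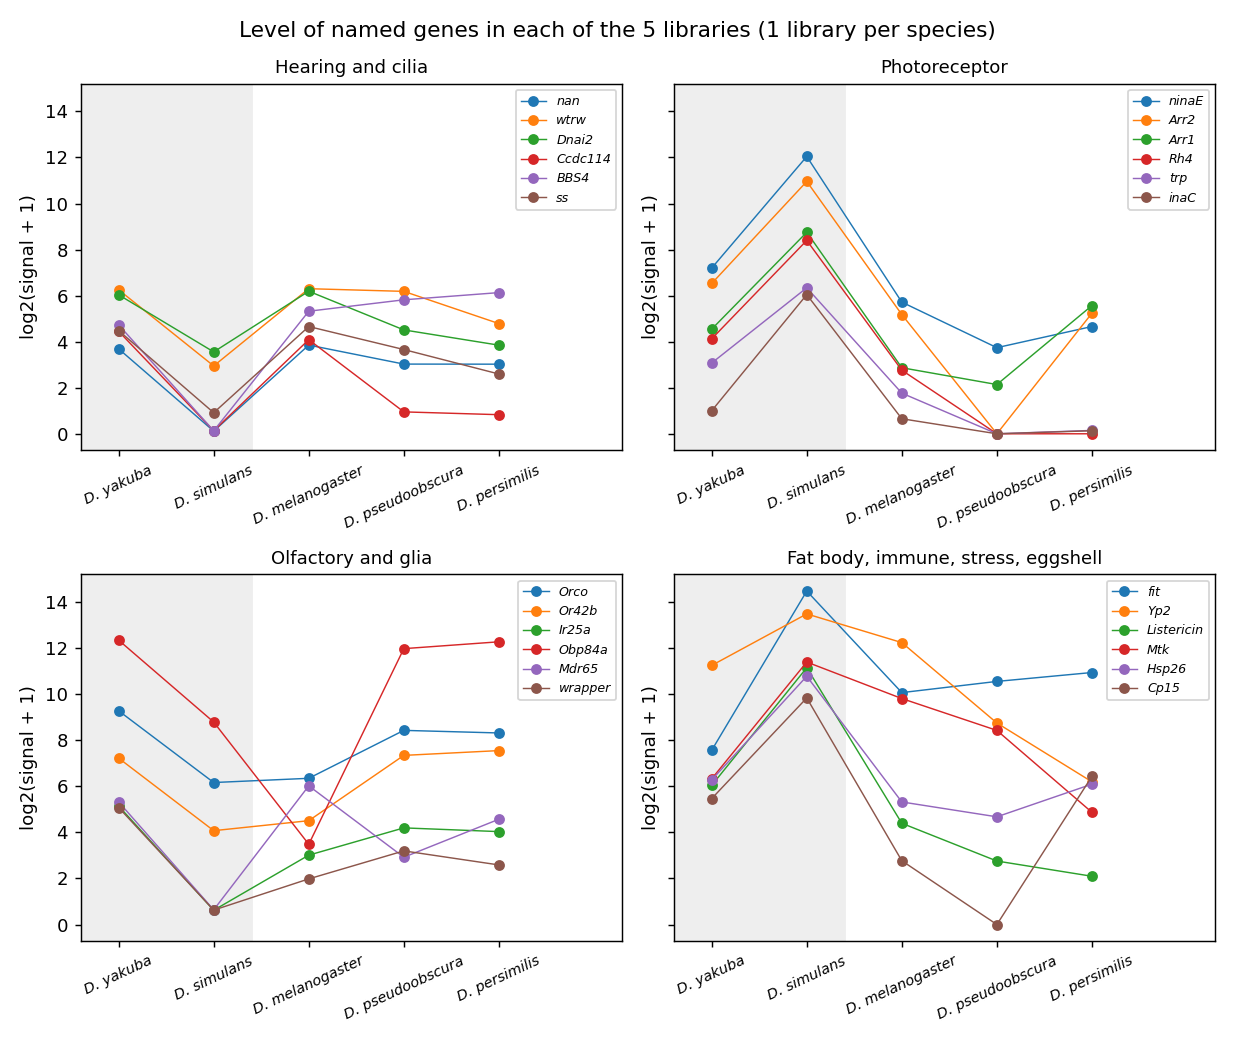
Level of 24 named genes in the 5 libraries, as log2(signal + 1), with 1 point per library and lines joining the points of a gene only to guide the eye. The shaded columns hold D. yakuba, on the left, and D. simulans. The hearing and cilia genes shown were taken from those past 4-fold higher in D. yakuba, and the photoreceptor genes from those past 4-fold lower. Their order in these 2 libraries was thus set by the choice. The gene nan was at 11.9 in D. yakuba and 0.0834 in D. simulans, and ninaE at 146 in D. yakuba and 4220 in D. simulans. Ccdc114 was also low in D. pseudoobscura (0.933) and D. persimilis (0.777).

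Broad neuronal and glial genes were also more often higher than lower in D. yakuba. In a bulk sample, fewer cells of a type and less RNA per cell cannot be told apart, and this holds for every cell-type gene here. All 16 synaptic genes that passed the mean, of 26 in the table, had a difference above 0. Of these, 6 were past 4-fold higher and 0 lower. Their median was 1.33, or 1.34 with the trend on coding length removed and 0.78 with that on exon length removed. The acetylcholinesterase gene Ace was at 33.8 in D. yakuba and 2.34 in D. simulans, against 13.9 in D. melanogaster, 14 in D. pseudoobscura and 7.41 in D. persimilis. The hyperpolarization-activated channel gene Ih was at 45.5 in D. yakuba and 5.51 in D. simulans, and the voltage-gated sodium channel gene para at 10.4 in D. yakuba and listed at 0 in D. simulans. With the trend on coding length removed, the difference of Ih was 1.95, under 4-fold, while those of Ace and para were 2.89 and 2.51. The vesicle gene n-syb, at 142 in D. yakuba and 41.8 in D. simulans, did not reach 4-fold. Syt1, the calcium sensor of vesicle release, was close to equal at 28.8 in D. yakuba and 27.6 in D. simulans.

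Among glial genes 13 of 16 passed the mean, with 3 higher and 0 lower, against 11.3% and 7.99% of all compared genes. Their median was 1.21 (1.02 with the length trend removed). Mdr65, a transporter of the blood-brain barrier glia, was at 39.0 in D. yakuba and 0.557 in D. simulans, against 64.1 in D. melanogaster, 6.59 in D. pseudoobscura and 22.8 in D. persimilis. The midline glia surface protein gene wrapper was at 32.9 in D. yakuba and 0.544 in D. simulans, against 2.95, 8.18 and 5.02 in D. melanogaster, D. pseudoobscura and D. persimilis. In both genes D. simulans was the lowest library. The gap junction gene Inx2 was at 159 in D. yakuba and 17.6 in D. simulans. The pan-glial transcription factor gene repo was at 22 in D. yakuba and 12.7 in D. simulans, and the astrocyte gene alrm at 56.7 in D. yakuba and 24.5 in D. simulans, neither past 4-fold.

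Olfactory genes belong mainly to the third antennal segment rather than to Johnston's organ. The 6 markers of that segment found in the table summed to 35431 in D. yakuba and 25243 in D. simulans. Receptor genes such as Or43b and Ir25a were low in D. simulans, at 5.17 and 0.537. Of 29 olfactory-segment genes that passed the mean, of 38 in the table, 9 were higher and 1 lower, with a median of 0.71 (0.76 with the length trend removed). The odorant receptor co-receptor gene Orco was at 622 in D. yakuba and 70.9 in D. simulans, against 80.6 in D. melanogaster, 345 in D. pseudoobscura and 319 in D. persimilis. D. yakuba was the highest of the 5 and D. simulans the lowest, close to D. melanogaster. The log2 difference was 3.11, on 15135 estimated reads in D. yakuba and 761 in D. simulans.

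Tuning receptors followed with smaller levels. Or42b was at 149 in D. yakuba and 15.9 in D. simulans, against 21.8 in D. melanogaster, 162 in D. pseudoobscura and 187 in D. persimilis. Or43b was at 44.0 in D. yakuba and 5.17 in D. simulans, and Or43a at 30.6 in D. yakuba and 4.57 in D. simulans. The ionotropic co-receptor gene Ir25a, which is also expressed in chordotonal neurons of D. melanogaster, was at 34.4 in D. yakuba and 0.537 in D. simulans, against 7.08 in D. melanogaster, 17.3 in D. pseudoobscura and 15.4 in D. persimilis. Among the 98 chemoreceptor genes in the table, 19 passed the mean, with 7 higher and 1 lower, and 11 above 0 and 6 below. The list's median difference was 0.59, 0.43 with the length trend removed and 0 with no filter on low values. Its summed signal was 1057 in D. yakuba and 213 in D. simulans, of which Orco gave 622 and 70.9. Orco, Or42b, Or43b and Ir25a are also counted in the olfactory-segment list. The carbon dioxide receptor genes Gr21a, at 13.1 in D. yakuba and 10.4 in D. simulans, and Gr63a, at 12.3 in D. yakuba and 12.8 in D. simulans, were close to equal. Not every gene of the third segment therefore moved with Orco.

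Odorant-binding proteins, small secreted carriers of support cells, went both ways. Of 24 that passed the mean, of 35 in the table, 3 were higher and 5 lower, against 11.3% and 7.99% of all compared genes. The median difference was 0.00, or 0.36 with the length trend removed. Obp84a was at 5222 in D. yakuba and 443 in D. simulans, against 10.2 in D. melanogaster, 4046 in D. pseudoobscura and 4972 in D. persimilis. It was high in D. yakuba and the obscura-group species, and D. simulans lay between these and D. melanogaster. Obp99b was at 80.8 in D. yakuba and 6928 in D. simulans, against 330 in D. melanogaster, 59.2 in D. pseudoobscura and 81.3 in D. persimilis, so that D. simulans stood alone above the rest. Its neighbours Obp99a, at 109 in D. yakuba and 3347 in D. simulans, and Obp99c, at 734 in D. yakuba and 7312 in D. simulans, were lower in D. yakuba as well. The 3 genes lie on chr3R between 29671657 and 29716896 in BDGP6. The abundant Obp83a and Obp83b were at 6679 and 3133 in D. yakuba and 7628 and 3030 in D. simulans, and did not differ by 4-fold.

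Among genes above 0 in both libraries that have a symbol other than a CG number, the largest excess in D. yakuba was that of Kaz-m1, which encodes a Kazal-type protease inhibitor-like protein. It was at 190 in D. yakuba and 1.73 in D. simulans, against 9.73 in D. melanogaster, 6.90 in D. pseudoobscura and 229 in D. persimilis, a difference of 6.13. D. yakuba and D. persimilis were high and the other 3 low, and its exons overlap those of another gene. The cuticular gene Vajk4 was at 257 in D. yakuba and 5.93 in D. simulans, with 43.1 in D. melanogaster, 0 in D. pseudoobscura and 0.216 in D. persimilis. Cpr49Ae, another cuticle gene, was at 169 in D. yakuba and 6.38 in D. simulans, against 73.1 in D. melanogaster, 521 in D. pseudoobscura and 637 in D. persimilis. The first of these was highest in D. yakuba and the second lowest in D. simulans.

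Of the remaining 15 largest with such a symbol, the transferase genes GlcAT-S and Pgant4 were at 47.9 and 29.5 in D. yakuba and at 0.144 and 0.0672 in D. simulans. The phosphoinositide phosphatase gene Sac1 was at 50.4 in D. yakuba and 0.656 in D. simulans, against 41.0 in D. melanogaster, 21.6 in D. pseudoobscura and 18.2 in D. persimilis. The transcription factor gene crp, RASSF8 and the receptor tyrosine kinase gene Tie were at 31.1, 26.6 and 28.2 in D. yakuba and all under 0.3 in D. simulans. These 3 were at 31.0, 25.8 and 33.1 in D. melanogaster, close to D. yakuba. The gene aspr was at 95.2 in D. yakuba and 1.36 in D. simulans, and the immunoglobulin-superfamily gene DIP-eta at 37.6 in D. yakuba and 0.512 in D. simulans. Chosen after their values were seen, CG14645, at 31998 in D. yakuba and 3199 in D. simulans, and CG3906, at 9165 in D. yakuba and 282 in D. simulans, were the most abundant genes past 4-fold higher. CG14645 is listed at 0 in D. melanogaster.

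Of the 562 higher genes, 116 were listed at 0 in D. simulans. The one with the highest level in D. yakuba was 14-3-3zeta, a phosphoserine-binding adaptor used in most cells, at 1141 in D. yakuba, 522 in D. melanogaster, 590 in D. pseudoobscura and 607 in D. persimilis. The core splicing gene SmF was at 100.2 in D. yakuba and likewise at 0 in D. simulans, against 83.4, 164 and 270 in D. melanogaster, D. pseudoobscura and D. persimilis. Both genes are used by nearly every cell, so a 0 in D. simulans is reported as listed and not as an absence of expression. CG6290, CG13856 and CG18661 were at 214, 80.0 and 67.3 in D. yakuba and listed at 0 in D. simulans. ATPsynO, an ATP synthase subunit gene, was at 3992 in D. yakuba and 440 in D. simulans, the only one of 52 respiratory-chain genes past 4-fold higher.

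Genes of the photoreceptor cell had the lowest median of the lists with at least 5 compared genes. Of 21 phototransduction genes that passed the mean, of 31 in the table, 15 were past 4-fold lower in D. yakuba and 1 higher, with a median difference of -3.38 (-3.39 with the length trend removed). Among the genes above 0 in all 5 libraries the median was -0.46. The major rhodopsin gene ninaE, at chr3R:19886255-19888206 in BDGP6, was at 146 in D. yakuba and 4220 in D. simulans, against 51.6 in D. melanogaster, 12.4 in D. pseudoobscura and 24.3 in D. persimilis. D. simulans stood far above the rest and D. yakuba came next, with 2725 estimated reads in D. yakuba and 34769 in D. simulans. The log2 difference was -4.85.

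The same order held for the arrestin gene Arr2, at 91.3 in D. yakuba and 1991 in D. simulans, against 35.2 in D. melanogaster, 0 in D. pseudoobscura and 36.7 in D. persimilis. Its partner Arr1 was at 22.3 in D. yakuba and 430 in D. simulans, with 6.30, 3.40 and 46.5 in D. melanogaster, D. pseudoobscura and D. persimilis. The rhodopsin genes Rh4 and Rh6, of colour-sensing inner photoreceptors, were at 16.4 and 7.31 in D. yakuba and 336 and 85.7 in D. simulans. Rh5 was listed at 0 in D. yakuba and at 68.0 in D. simulans. The light-gated channel gene trp was at 7.42 in D. yakuba and 80.1 in D. simulans, and the eye protein kinase C gene inaC at 1 in D. yakuba and 65.0 in D. simulans. The 6 members that were not past 4-fold lower were ninaD, Cds, Cam, ninaB, laza and Pis. Calmodulin (Cam) was at 1307 in D. yakuba and 1227 in D. simulans, and the phosphatidylinositol synthase gene Pis at 105 in D. yakuba and 22.6 in D. simulans was the 1 member past 4-fold higher.

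Of the 13 genes fixed as photoreceptor markers 10 were in the table. Their summed signal was 306 in D. yakuba and 7325 in D. simulans, against 110 in D. melanogaster, 15.8 in D. pseudoobscura and 130 in D. persimilis. The mean of at least 5 includes D. simulans, and 5 of the 9 markers that passed it (Rh5, Rh6, trp, inaD and chp) did so only through that library, which favours a lower value in D. yakuba. Over the whole phototransduction list this held for 8 of the 15 lower genes. Of the 10 markers 1 was listed at 0 in D. yakuba and none in D. simulans. Pigment-cell markers were nearly level, at a sum of 199 in D. yakuba and 190 in D. simulans over 3 genes. Of 11 eye pigment genes that passed the mean 2 were higher and 0 lower, against 11.3% and 7.99% of all compared genes. Their median was 0.89, or 0.43 with the length trend removed. The part of eye tissue in these differences was not tested.

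Fat body, blood cell and immune genes were more often past 4-fold lower than higher in D. yakuba. Over all compared genes 7.99% were lower and 11.3% higher. Under scaling to equal totals the medians of the fat body, haemocyte, immune and heat shock lists given next were -0.32, -0.31, -0.35 and -0.05, and relative to the median of all genes, which that scaling moved to 0.64, they were -0.96, -0.95, -0.98 and -0.69. Of 26 fat body and haemolymph genes that passed the mean, of 30 in the table, 8 were past 4-fold lower and 1 higher, with a median of -0.98 (-1.26 with the length trend removed). The gene fit, a secreted fat-body product with female-biased expression in D. melanogaster, was at 189 in D. yakuba and 22913 in D. simulans, against 1076 in D. melanogaster, 1508 in D. pseudoobscura and 1972 in D. persimilis. D. yakuba was the lowest and D. simulans the highest of the 5, with a difference of -6.92. Its exons overlap those of another gene. The yolk protein gene Yp2 was at 2442 in D. yakuba and 11514 in D. simulans, and Yp1 at 3489 in D. yakuba and 8226 in D. simulans, so that only Yp2 passed 4-fold. The storage protein gene Lsp2, at 0.0814 in D. yakuba and 10.2 in D. simulans, was at 453 in D. melanogaster.

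Of 38 antimicrobial and immune genes, all of which passed the mean, 9 were lower and 3 higher, with a median of -0.96 (-0.83 with the length trend removed) and summed signals of 4277 in D. yakuba and 21338 in D. simulans. Those lower were AttD, Def, Listericin, Mtk, edin, Dso1, TotX, IM18 and PGRP-SD. For 3 of the 9 the mean signal over the other 4 libraries was under 5, so that they were compared only through their high D. simulans value. The antifungal peptide gene Mtk was at 79.4 in D. yakuba and 2703 in D. simulans, against 900 in D. melanogaster, 344 in D. pseudoobscura and 28.3 in D. persimilis. Listericin was at 65.0 in D. yakuba and 2279 in D. simulans, against 20.1, 5.76 and 3.28 in D. melanogaster, D. pseudoobscura and D. persimilis. The defensin gene Def was at 2.37 in D. yakuba and 293 in D. simulans, and no other library exceeded 7.53. D. simulans was thus highest for these 3 genes, while D. melanogaster was second for Mtk.

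AttD was listed at 0 in D. yakuba and at 109 in D. simulans, and edin was at 0.368 in D. yakuba and 41.8 in D. simulans. The 3 higher genes were parts of the Toll pathway: the receptor gene Tl at 12.6 in D. yakuba and 0.827 in D. simulans, the adaptor gene Myd88 at 48.0 in D. yakuba and 8.68 in D. simulans, and the NF-kappaB gene dl at 79.6 in D. yakuba and 17.6 in D. simulans. Tl and dl encode long proteins, and their differences of 2.89 and 2.11 became 2.08 and 1.23 with the length trend removed, the second under 4-fold.

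Among 17 haemocyte genes 3 were lower and 0 higher, against 7.99% and 11.3% of all compared genes. The list's median was -0.89 (-1.06 with the length trend removed). The 3 lower genes were Nimrod genes of 1 cluster on chr2L, between 13963507 and 13969976 in BDGP6. NimB3 was at 6.68 in D. yakuba and 522 in D. simulans, NimB4 at 16.8 in D. yakuba and 97.2 in D. simulans, and NimB1 at 14.7 in D. yakuba and 67.7 in D. simulans. The haemocyte marker Hml was at 18.7 in D. yakuba and 29.1 in D. simulans and did not reach 4-fold.

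A cluster of small heat shock protein genes was lower in D. yakuba, while most other stress genes did not reach 4-fold. Of 21 heat shock and stress genes that passed the mean 3 were lower and 0 higher, against 7.99% and 11.3% of all compared genes. Their median was -0.67 (-0.71 with the length trend removed). Hsp22 was at 58.8 in D. yakuba and 2895 in D. simulans, against 0 in D. melanogaster, 841 in D. pseudoobscura and 2507 in D. persimilis. Hsp26 was at 76.9 in D. yakuba and 1762 in D. simulans, against 39.1, 24.6 and 67.5 in D. melanogaster, D. pseudoobscura and D. persimilis. For Hsp26 D. simulans alone was high, whereas for Hsp22 it shared the high level with D. persimilis. Hsp67Bc was at 8.11 in D. yakuba and 139 in D. simulans. These 3 genes are neighbours on chr3L, between 9371511 and 9377427 in BDGP6. The general factor gene Hsf was at 36.8 in D. yakuba and 26.8 in D. simulans.

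Eggshell genes gave 3 lower of 4 that passed the mean, of 19 in the table. The chorion gene Cp15 was at 43.3 in D. yakuba and 917 in D. simulans, against 5.82 in D. melanogaster, 0 in D. pseudoobscura and 85.5 in D. persimilis. Cp19 was at 2.36 in D. yakuba and 82.9 in D. simulans, and Cp18 at 2.16 in D. yakuba and 38.6 in D. simulans. Cp19 and Cp18 passed the mean only through D. simulans, which favours a lower value in D. yakuba, whereas Cp15 would pass without it. The 3 are adjacent on chr3L, between 8726791 and 8730604 in BDGP6. Digestive enzymes gave 4 lower and 1 higher of 14, the lower ones including the serine protease genes Jon25Bi, at 18.0 in D. yakuba and 1490 in D. simulans, and Jon25Bii, at 12.4 in D. yakuba and 453 in D. simulans. Jon25Bii was at 0 in D. melanogaster, 39.3 in D. pseudoobscura and 321 in D. persimilis. Markers of follicle cells summed to 51.0 in D. yakuba and 1045 in D. simulans over 5 genes, and those of the gut to 288 in D. yakuba and 2095 in D. simulans over 4 genes. The first sum includes Cp15, Cp18 and Cp19 and the second Jon25Bi, so neither is separate from the genes named above. Of the 4 gut markers 1 was past 4-fold lower. The part of other tissues in these differences was not tested.

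The 2 largest deficits of D. yakuba among genes above 0 in both libraries were of another kind, with D. yakuba alone low. RpS27A, which encodes a ribosomal protein fused to ubiquitin, was at 8.29 in D. yakuba and 4657 in D. simulans, against 2844 in D. melanogaster, 3344 in D. pseudoobscura and 4412 in D. persimilis. The P450 gene Cyp6w1 was at 0.192 in D. yakuba and 384 in D. simulans, against 667 in D. melanogaster, 711 in D. pseudoobscura and 682 in D. persimilis. The other 4 libraries lay close together for each gene. RpS27A shares ubiquitin sequence with other genes and overlaps another gene's exons, so its value is uncertain. The sources used here do not say how genes were paired across species, and a match to another gene copy cannot be told apart from a low level.

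Cyp6d5, another P450 gene, was at 1.30 in D. yakuba and 121 in D. simulans, against 462 in D. melanogaster, 85.2 in D. pseudoobscura and 102 in D. persimilis, again with D. yakuba lowest. Cyp309a1 was at 2.17 in D. yakuba and 120 in D. simulans, with 5.58 in D. melanogaster. Over the 53 detoxification genes that passed the mean, 6 were higher and 6 lower, against 11.3% and 7.99% of all compared genes. Their median was -0.08. The replication clamp gene PCNA was at 0.307 in D. yakuba and 45.4 in D. simulans, and the centriole gene Rcd4 at 0.987 in D. yakuba and 81.7 in D. simulans. Among the 37 lower genes listed at 0 in D. yakuba, CG3088, CG11211, CG7829 and the carbonic anhydrase gene CAH5 were at 1425, 790, 772 and 243 in D. simulans. Of these only CG3088 exceeded 1 in another library, at 11.5 in D. persimilis. CG3088, CG11211, CG7829, CAH5 and PCNA passed the mean only through D. simulans, which favours a lower value in D. yakuba. The same holds for 69 of the 398 lower genes in all.

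Respiratory-chain genes differed mostly by less than 4-fold, and nearly all had a lower signal in D. yakuba. Of 52 respiratory-chain and ATP synthase genes that passed the mean, 50 had a lower signal in D. yakuba, with a median of -1.05, or -0.51 with the length trend removed. Cyt-c-p, the cytochrome c gene, was at 8283 in D. yakuba and 17657 in D. simulans. Cytosolic ribosomal proteins had a median of -0.84 over 47 genes and mitochondrial ribosomal proteins one of -0.85 over 54, which became -0.39 and -0.48 with the length trend removed. Of the cytosolic ribosomal genes 42 were below 0 and 5 above, and of the mitochondrial ones 44 were below and 10 above. Each of these ribosomal lists had 4 genes past 4-fold lower and 0 higher, a share close to the 7.99% of all compared genes that were lower. Under scaling to equal totals, which moved the median of all genes to 0.64, the medians of the respiratory, cytosolic ribosomal and mitochondrial ribosomal lists were -0.42, -0.21 and -0.23. Relative to that median they were -1.05, -0.84 and -0.86.

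Other lists lay near the background. Muscle genes had 0 of 16 past 4-fold in either direction, and their median of -0.51 turned to 0.11 under scaling to equal totals. The myosin light chain gene Mlc2 was at 4191 in D. yakuba and 7547 in D. simulans. Tubulin, actin and other common housekeeping genes had a median of -0.01 over 16 genes, and 14-3-3zeta was the only one past 4-fold. Proteasome genes had a median of -0.35 over 23 genes, which turned to 0.18 under equal totals, with 0 higher and 2 lower. Of 5 male reproductive genes that passed the mean 0 were past 4-fold.

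Circadian genes gave 3 higher and 1 lower of 11, against 11.3% and 7.99% of all compared genes, with a median of 0.47. This median was 0.19 with the trend on coding length removed, 0.03 with the trend on exon length removed, -0.06 with a mean of at least 20 and -0.12 under median-of-ratios scaling, so no direction is given for the list. The clock transcription factor genes Clk and cyc were at 4.91 and 99.1 in D. yakuba and 0.135 and 22.9 in D. simulans, and their target vri at 17.3 in D. yakuba and 2.55 in D. simulans. The light-response gene jet ran the other way, at 9.52 in D. yakuba and 69.7 in D. simulans, and tim, at 3.43 in D. yakuba and 16.6 in D. simulans, did not quite reach 4-fold. No source used here gives the time of day of dissection. Cuticular proteins gave 4 higher and 7 lower of 18 that passed the mean, against 11.3% and 7.99% of all compared genes. The higher ones included Vajk4 and Cpr49Ae, given above. Among the lower ones, Pcp was listed at 0 in D. yakuba and at 39.2 in D. simulans, and Cpr60D was at 1.92 in D. yakuba and 23.6 in D. simulans. Pcp and Acp1, another lower gene, passed the mean only through D. simulans, which favours a lower value in D. yakuba. Tetraspanins gave 3 higher and 0 lower of 22, and the share higher was close to the 11.3% of all compared genes. The largest difference was that of Tsp3A, at 28.9 in D. yakuba and listed at 0 in D. simulans. The tetraspanin median of 0.86 turned to -0.41 when genes with overlapping exons were left out. In the yellow family yellow-h, at 38.3 in D. yakuba and 1.89 in D. simulans, and yellow-c, at 295 in D. yakuba and 67.2 in D. simulans, were past 4-fold of 5 that passed the mean.

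**Figure D4:**
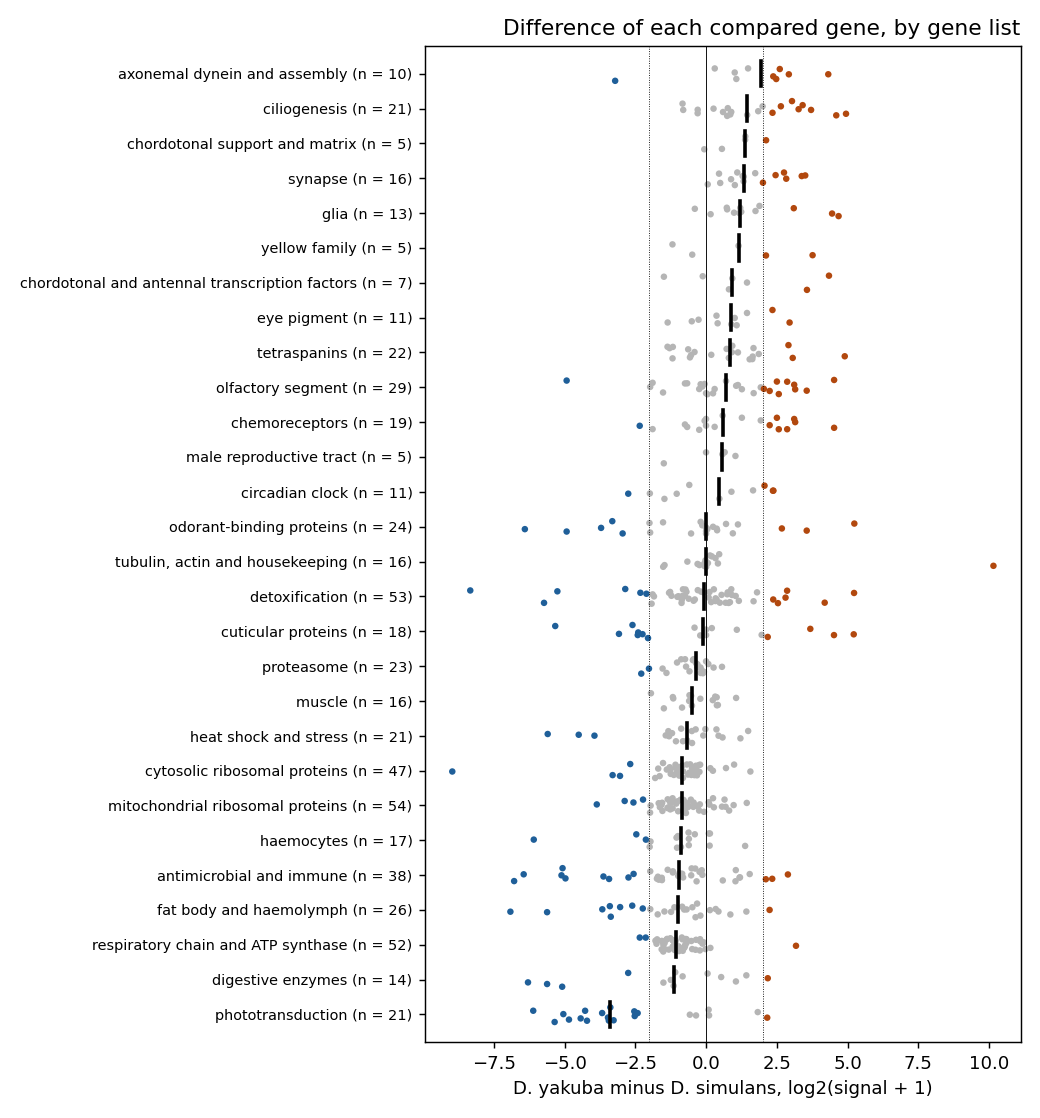
Difference between D. yakuba and D. simulans in log2(signal + 1) for each compared gene of 28 gene lists, 1 point per gene, with the list's median as a black bar and the number of genes in brackets. Orange points are at least 4-fold higher in D. yakuba and blue points at least 4-fold lower; the medians run between 1.93 for axonemal dynein genes and -3.38 for phototransduction genes.

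The levels in the other 3 species, which the 4-fold threshold did not use, show which of both libraries lay apart. Among the 562 genes higher in D. yakuba, D. yakuba was the highest of the 5 libraries by at least 2-fold for 65 (11.6%), while D. simulans was the lowest by that margin for 323 (57.5%). Over all compared genes D. yakuba was highest for 2.01% and D. simulans lowest for 9.47%. Among the 398 genes lower in D. yakuba, D. yakuba was the lowest for 118 (29.6%) and D. simulans the highest for 158 (39.7%), against 3.85% with D. yakuba lowest and 5.58% with D. simulans highest over all compared genes. A gene past 4-fold between both libraries is more readily the outermost in either, so these shares exceed the background by construction. On the higher side the outlying library was mostly D. simulans, and on the lower side it was divided between both.

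**Figure D5:**
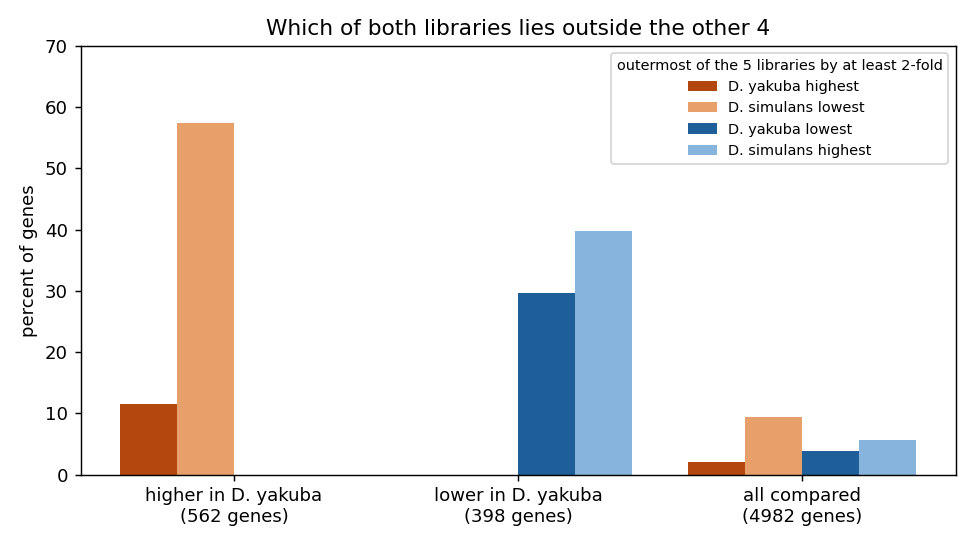
Percent of genes for which D. yakuba or D. simulans was the outermost of the 5 libraries by at least 2-fold, for genes at least 4-fold higher in D. yakuba, at least 4-fold lower, and all compared genes. D. yakuba was highest for 11.6% of the higher genes and D. simulans lowest for 57.5%, while D. yakuba was lowest for 29.6% and D. simulans highest for 39.7% of the lower genes.

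D. melanogaster is by descent a closer relative of D. simulans than of D. yakuba. Its signal was nearer to that of D. yakuba for 3020 of the 4982 genes (60.6%). It was nearer to D. yakuba for 447 of the 562 higher genes (79.5%) and for 212 of the 398 lower genes (53.3%). The D. melanogaster values were divided by exon length and those of D. yakuba and D. simulans by coding length, as worked out from the deposited values. The part of this difference in these shares was not tested.

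By chromosome arm of the D. melanogaster gene, 12.3% of the X-linked genes were higher and 7.81% lower. The autosomal arms ranged between 10.5% (2L) and 11.7% (3R) higher and between 7.16% (2L) and 8.82% (3L) lower. On the small chromosome 4, 7 of 36 genes (19.4%) were higher and 1 (2.78%) lower, among them onecut, unc-13 and yellow-h on the higher side.

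At the threshold itself, the last genes counted as higher were thoc6, at 12.4 in D. yakuba and 2.33 in D. simulans, the synaptic chaperone gene Csp, at 53.0 in D. yakuba and 12.4 in D. simulans, and CG9536, at 36.8 in D. yakuba and 8.45 in D. simulans. Just outside were Klp68D, given above, dgt4, at 20.2 in D. yakuba and 4.32 in D. simulans, and Pdk, at 227 in D. yakuba and 56.1 in D. simulans. On the lower side CG5958, alphaSnap and CG14757 were just inside, at 87.9, 89.1 and 387 in D. yakuba and 355, 361 and 1556 in D. simulans. NdufA3, Obp83cd and CG10863 were just outside, at 848, 8.82 and 162 in D. yakuba and 3379, 38.3 and 653 in D. simulans.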

How the data were processed

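RNA of Johnston's organ was sequenced in 1 library per species, and D. yakuba was compared with D. simulans. The deposited count values are whole reads per gene of each species' own annotation, without normalization; the submitters' processing notes name TopHat2 2.0.3 and HTSeq, without their roles. They were used for depth only, since their genes carry species-specific identifiers, and no count test was possible with 1 library per group.

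The comparison used the signal values of a table deposited by the authors, with 8180 genes under D. melanogaster symbols, whose making the labels do not describe. Read from the values, they are reads per gene length scaled to an equal 75th percentile. The steps between low values placed 79.1% of low D. yakuba genes and 66.3% of low D. simulans genes within 0.1 of a whole read when coding length was used, against 26.1% and 24.3% with exon length. For D. melanogaster it was exon length, with 82.2%. One read was worth 59.9 signal times bases in D. yakuba and 136 in D. simulans, which gave the estimated reads with 95% exact Poisson intervals. These rest on D. melanogaster lengths and cover counting error only. For a 0 the interval reaches 3.69 reads. Strand and multiple-mapping settings were not stated, so overlapping genes and near-identical copies are uncertain.

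Symbols were matched to the Ensembl annotation of BDGP6, 6465 by current and 1622 by older symbol, with 93 unmatched; positions are those of the D. melanogaster gene. Differences are D. yakuba minus D. simulans in log2(signal + 1), which understates low genes, over genes with a mean of at least 5. The size of 4-fold stood in for a test. An earlier treatment of this table multiplied all values by a common factor of 1.09; the deposited values were used here and the factor was an alternative. The trend with length was removed by lowess with a span of 0.5. Other alternatives were equal totals, TMM and median-of-ratios scaling, pseudocounts, filters on low or 0 values, and leaving out genes with overlapping exons.

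Text names, in each direction, the 15 largest differences above 0 in both libraries with a symbol other than a CG number, the 5 highest genes at 0 in the other library, hearing-list members past 4-fold, up to 5 from each other list and 3 genes on each side of the threshold. Near-equal list members were added for contrast after their values were seen. Members and lists were chosen with earlier results of these data known, and a few list entries naming another kind of gene were removed after values were seen. The calls, the removal of the length trend and the value of 1 read were tested on simulated data. Promoter and protein sequences were not used here. Python 3.11.15, pandas 2.3.3, NumPy 2.4.6, SciPy 1.17.1, statsmodels 0.14.6, matplotlib 3.10.9 and edgeR 4.0.16 (TMM) were used.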

Additional observations from a re-analysis of the deposited data

How the results depend on the processing

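The counts of 562 higher and 398 lower genes stayed within 1.5 times under TMM scaling, median-of-ratios scaling, the common factor, a pseudocount of 0.1, no filter, genes above 0 in both or in all 5 libraries, and removal of either length trend. Scaling to equal totals moved the median of all genes by 0.64 and gave 957 higher and 225 lower, or 556 and 411 relative to that median. The share of calls that were higher was 81.0% under equal totals, against 58.5% as reported, 48.8% with a pseudocount of 5 and 46.4% with a mean of at least 20. A pseudocount of 5 gave 235 higher and 247 lower, a mean of at least 20 gave 217 and 251, and leaving out genes with overlapping exons gave 348 and 234, from 2792 genes tested.

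The share of genes with D. melanogaster nearer D. yakuba was 87.9% of the higher and 41.3% of the lower genes under equal totals, 83.6% and 47.5% with a pseudocount of 0.1, and 70.2% and 66.4% with a pseudocount of 5. Among genes above 0 in all 5 libraries it was 47.6% of the lower genes. The median difference of digestive enzymes was 0.027 with no filter on low values, against -1.12 as reported. Medians of the axonemal dynein, cilium assembly, support and transcription factor lists were then 1.01, 1.35, 0.32 and 0.35. As reported they were 1.93, 1.45, 1.38 and 0.93. The cause of these shifts was not tested. For 137 named genes, each under the 9 alternatives of scaling, pseudocount and length, 84 values dropped under 4-fold and 1149 kept direction and side of the threshold. No paired analysis was possible because each species had 1 library, and no replicate could be left out.

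Depth limits the lower value of many calls: 110 higher genes rested on fewer than 10 estimated reads in D. simulans and 26 lower genes on fewer than 10 in D. yakuba.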
